A study of Mus musculus with 2 samples.

Results

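The miR-30 family of the mouse consists of 6 hairpin genes, Mir30a, Mir30b, Mir30c-1, Mir30c-2, Mir30d and Mir30e, and its levels in the embryonic forebrain are described here. Members were taken by name: the rows of the count tables whose Ensembl identifiers carry these 6 symbols in the mouse annotation, out of 1973 rows of microRNA (miRNA) genes. All 6 had a row and all 6 had counts in both libraries. The material was forebrain of healthy B6NCrl mouse embryos at embryonic day 11.5, with male and female embryos mixed, and the labels name no mutation, transgene or treatment. Replicate 1 was a pool of 109 embryos and replicate 2 a pool of 88 embryos, and the 2 libraries form the only group, so genes and loci are compared with each other and no condition is. Whole forebrain was sequenced, so a level is a mean over all its cells, and fewer cells that hold a miRNA cannot be told apart from less of it per cell. Both pools carry the same donor entry in the labels, and p-values below measure only the spread between these samples or their counting error. Counts on the strand of the genes summed to 1281201 in replicate 1 and 1297647 in replicate 2, and levels are in CPM, a gene's counts scaled to a library total of 1e+06 of these.

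A miRNA gene is transcribed as part of a longer RNA, from which the enzyme Drosha cuts a hairpin and Dicer then a short duplex. The 5′ arm (5p) or the 3′ arm (3p) of the duplex enters an Argonaute protein and pairs, mainly through its seed, bases 2 to 8, with messenger RNAs that are then repressed. The miR-30 genes lie in 3 loci of a pair of hairpins each and share the seed of their 5p arms, and messenger RNAs known as targets of the family include those of Snai1, a driver of the transition from epithelium to mesenchyme, and of the matrix protein Ctgf.

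The mature sequences are shown because only letters that differ between members can assign a read to 1 gene. RefSeq (GRCm38.p6) had entries for 4 of the 6 members, and Mir30b and Mir30d had none. Seeds are in capitals.
miR-30a-5p: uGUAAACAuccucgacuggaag
miR-30e-5p: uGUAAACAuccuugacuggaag
miR-30c-5p: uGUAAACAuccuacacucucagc
miR-30a-3p: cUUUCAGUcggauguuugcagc
miR-30e-3p: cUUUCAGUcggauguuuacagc
miR-30c-1-3p: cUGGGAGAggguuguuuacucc
miR-30c-2-3p: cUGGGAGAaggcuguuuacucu

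The 5p arms of these 4 members had a single seed, GUAAACA, and their 3p arms fell into 2 seed groups, UUUCAGU for Mir30a and Mir30e and UGGGAGA for Mir30c-1 and Mir30c-2. Counted from 1 at the 5′ end, miR-30a-5p differed from miR-30e-5p by 1 substitution, C13U, and miR-30a-3p from miR-30e-3p by G18A. The hairpins of Mir30a and Mir30e had no more than 18 bases in a row in common. How the authors' alignment treated reads with a mismatch is not given. The split of reads between Mir30a and Mir30e, whose arms differ by 1 base each, thus rests on an unknown setting. Some of their reads may be among those that map to several places. Without a sequence for Mir30b and Mir30d, whether their counts depend on this setting as well was not checked. Mir30c-1 and Mir30c-2 encode the same miR-30c-5p of 23 bases, within a stretch of 28 bases that both hairpins hold, whereas their 3p arms differ by G9A, U12C and C22U. A read of that 5p arm alone therefore fits 2 places. Reads that map to several places are in no gene row. They numbered 1165381 in replicate 1 and 1001079 in replicate 2 over all of the genome, and how many of them were miR-30c-5p is not in the files, so the levels of Mir30c-1 and Mir30c-2 can be too low by an unknown amount.

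Mir30e had the highest level of the family, with 24087 and 25964 CPM in replicates 1 and 2, a mean of 25025 ± 1327 CPM (SD, n = 2, as for each value with ± below), and was the eighth most abundant miRNA gene in both libraries. Mir30a had 9834 and 10306 CPM in replicates 1 and 2, ranks 28 and 25. Mir30d had 4433 and 4369 CPM and rank 54 in both. These 3 genes stood far above the other 3 in both libraries. Mir30b had levels of 173 and 136 CPM in replicates 1 and 2, from 222 and 176 counts. Mir30c-1 had 116 and 113 CPM, from 149 and 146 counts. Mir30c-2, the lowest member, had 93.7 and 67.8 CPM, from 120 and 88 counts. None of the 3 low genes overlapped the level of an abundant one in either library. Mature arms differ little in length, 22 or 23 bases for the 4 members with a sequence, and levels were not divided by it.

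**Figure D1:**
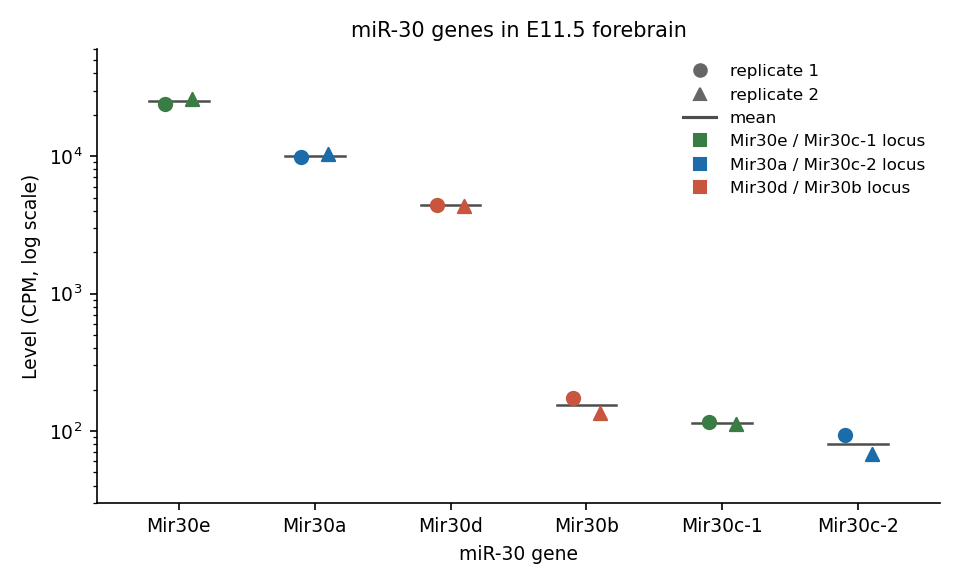
Level of each miR-30 gene in CPM (log axis), with circles for replicate 1, triangles for replicate 2, bars for the mean and colours for the locus. Mir30e, Mir30a and Mir30d lie at 4369 CPM or more in both libraries, and Mir30b, Mir30c-1 and Mir30c-2 lie between 67.8 and 173 CPM.

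The order of the members was the same in both libraries. Mir30e exceeded Mir30a 2.45-fold in replicate 1 and 2.52-fold in replicate 2, and Mir30a exceeded Mir30d 2.22-fold and 2.36-fold. The widest step lay between Mir30d and Mir30b, at 25.6-fold and 32.2-fold. Each of these steps was larger than the sum of the SDs of its 2 genes, and the exact 95% intervals of the log2 ratio lay above 0 in both libraries. The lower members were closer together. Mir30b exceeded Mir30c-1 by 0.58 on the log2 scale in replicate 1 (0.27 to 0.88) but by 0.27 in replicate 2 (-0.06 to 0.60). Mir30c-1 exceeded Mir30c-2 by 0.31 in replicate 1 (-0.04 to 0.67) and by 0.73 in replicate 2 (0.34 to 1.13). Both steps were larger than the sum of the SDs of their 2 genes, 40.05 against 29.30 CPM for Mir30b and Mir30c-1 and 33.67 against 20.95 CPM for Mir30c-1 and Mir30c-2, and the levels did not overlap. Each was beyond counting error in 1 library and within it in the other. By counting error alone, the order of the 3 low genes is thus less firm than that of the 3 abundant ones. The step from Mir30e to Mir30a, however, rests on the unknown treatment of reads with a mismatch. Counts of Mir30c-1 and Mir30c-2 also lack reads of miR-30c-5p that fit several places, so their place in the order can be too low. Whether Mir30b and Mir30d lack shared reads was not checked, since RefSeq had no sequence for either.

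Together the 6 genes took 3.87% of the counts in replicate 1, with a 95% Wilson interval from 3.84 to 3.91%, and 4.10% in replicate 2, with one from 4.06 to 4.13%. PCR copies of a molecule count as separate reads, so all intervals and limits here describe counting error alone. Mir30e made up 62.8% ± 0.860 of the family's counts, Mir30a 25.3% ± 0.156 and Mir30d 11.1% ± 0.550. Mir30b made up 0.389% ± 0.0821, Mir30c-1 0.287% ± 0.0180 and Mir30c-2 0.204% ± 0.0539. By locus, the hairpins inside Nfyc on chromosome 4 held 63.1% ± 0.842 of the family, those on chromosome 1 held 25.5% ± 0.210 and those on chromosome 15 held 11.4% ± 0.632.

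Each locus held 1 abundant and 1 scarce hairpin, and in all 3 the abundant gene was the first in the direction of transcription. On chromosome 4 (mm10, minus strand), Mir30e (ENSMUSG00000065409, 120772606 to 120772697) and Mir30c-1 (ENSMUSG00000065490, 120769534 to 120769622) lie in an intron of Nfyc, which encodes the C subunit of the CCAAT-binding factor NF-Y. Mir30e had 30860 counts in replicate 1 and 33692 in replicate 2, and the log2 ratio of Mir30e to Mir30c-1 was 7.69 (7.46 to 7.94, exact 95% interval) and 7.85 (7.62 to 8.09). Its mean of 7.77 ± 0.11 is a fold of 219. On chromosome 1 (plus strand), Mir30a (ENSMUSG00000065405, 23272269 to 23272339) overlaps no other annotated gene, and Mir30c-2 (ENSMUSG00000065567, 23291701 to 23291784) lies in the exon of the noncoding RNA Gm27028. The log2 ratio of Mir30a to Mir30c-2 was 6.71 (6.45 to 6.99) in replicate 1 and 7.25 (6.95 to 7.57) in replicate 2, a mean of 6.98 ± 0.38 or 126-fold. On chromosome 15 (minus strand), Mir30d (ENSMUSG00000065437, 68341208 to 68341289) lies in an exon of the noncoding RNA Gm20732 and in part in one of Gm37296, and Mir30b (ENSMUSG00000065476, 68337415 to 68337510) overlaps part of an exon of Gm26621. The log2 ratio of Mir30d to Mir30b was 4.68 (4.48 to 4.88) and 5.01 (4.79 to 5.23), a mean of 4.84 ± 0.23 or 28.7-fold. The chromosome 15 pair was the closest to even in both libraries. For the 2 loci with a miR-30c hairpin, the scarce gene is the one whose 5p arm fits 2 places, and the part of this in the ratio was not tested. For Mir30d and Mir30b, which had no RefSeq sequence, shared reads were not checked.

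Unequal counts of neighbouring hairpins were common among miRNA genes. Of 114 pairs that stand next to each other on 1 strand among the genes with 10 counts or more, with starts at most 10000 bases apart, the median absolute log2 ratio was 2.46 and the quartiles were 1.41 and 5.18. The mean log2 ratio of Mir30d to Mir30b, 4.84, thus lay below the upper quartile. Of the pairs, 31 were further from even, Mir30e and Mir30c-1 among them. Mir30e and Mir30c-1 lay beyond it, with 6 pairs further from even. Mir30a and Mir30c-2 start 19432 bases apart, outside that distance. With a limit of 20000 bases, chosen after the data were seen, 118 pairs had a median of 2.46. Of these, 12 were further from even than Mir30a and Mir30c-2, Mir30e and Mir30c-1 among them. The upstream hairpin was the higher one in 53 of the 115 pairs without a miR-30 gene within the wider limit, or 46.1%. It was the higher one in 3 of the 3 miR-30 loci. The downstream genes Mir30c-1 and Mir30c-2, however, lack reads of miR-30c-5p that fit several places. The part of this in the direction was not tested. Only the pair of Mir30d and Mir30b has no miR-30c gene, but RefSeq had no sequence for either. Whether their reads fit several places was therefore not checked. The other pairs also hold genes that share a whole mature arm with another gene, such as Mir92-1. Their ratios can thus be affected by reads that fit several places, which was not tested. Pairs of 1 cluster share genes and are not independent, and these counts are descriptions of the libraries.

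**Figure D2:**
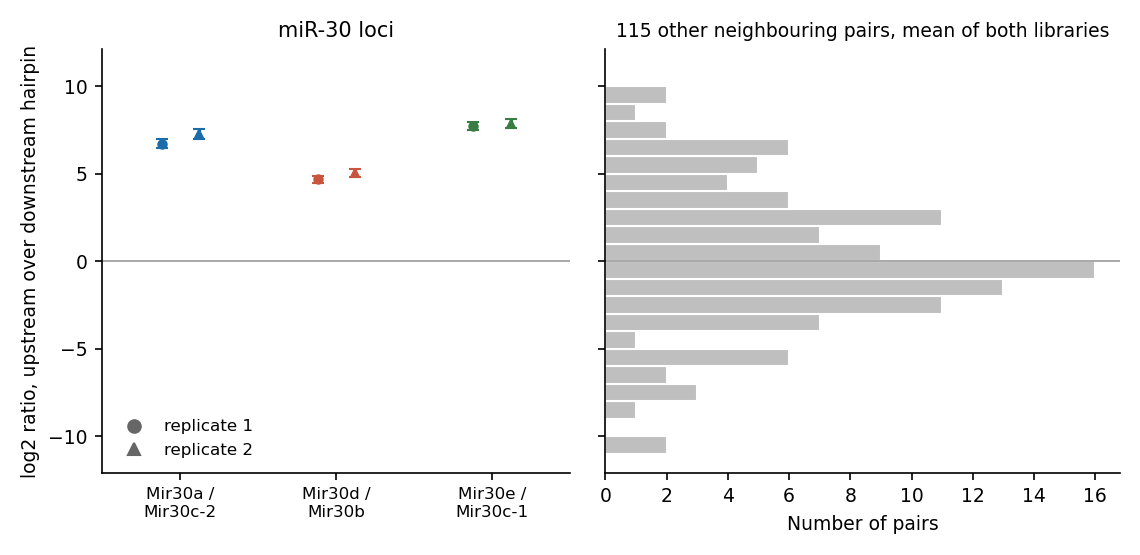
The log2 ratio of the upstream to the downstream hairpin in each miR-30 locus (left, points with exact 95% intervals, circles for replicate 1 and triangles for replicate 2) and in 115 other neighbouring pairs (right, number of pairs per bin of 1 log2 unit, mean of both libraries). All miR-30 ratios are positive, from 4.68 to 7.85, while the other pairs lie on both sides of 0. Counts of Mir30c-1 and Mir30c-2 lack reads of miR-30c-5p that fit several places, and for Mir30d and Mir30b shared reads were not checked.

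The libraries were compared to show the spread behind these levels. Mir30e was lower in replicate 1, with a log2 ratio of replicate 1 to replicate 2 of -0.11 (-0.13 to -0.09; exact binomial test with Benjamini-Hochberg adjustment over 398 genes, adjusted p = 2.95e-20). Mir30a was lower too, at -0.07 (-0.10 to -0.03, adjusted p = 0.000814 in the same exact test). With TMM scaling these became -0.18 and -0.14, and with DESeq2 size factors -0.17 and -0.13. Mir30d stood at 0.02 (-0.03 to 0.07, exact test, adjusted p = 0.662) and Mir30c-1 at 0.05 (-0.29 to 0.39, exact test, adjusted p = 0.936), and both turned slightly negative with TMM or DESeq2 scaling, which move the median over all genes by less than 0.1. Mir30b stood at 0.35 (0.06 to 0.65, exact test, adjusted p = 0.0540) and Mir30c-2 at 0.47 (0.06 to 0.88, exact test, adjusted p = 0.0696), the widest differences of the family but from its smallest counts. Of the 6 members, 2 were lower in replicate 1 and 0 higher at an adjusted p under 0.05, or 33.3%, and 0 members differed 2-fold. Over all genes tested, 28.4% were called, 20.6% as higher and 7.79% as lower in replicate 1, and 2.76% were called with a 2-fold difference. The share among the members is near that background with both directions pooled over genes of all depths. A call depends on depth, however. Of the 57 genes with 10000 counts or more in total, 75.4% were called, 26 as higher and 17 as lower in replicate 1. The 3 abundant members are among these genes. The split of all called genes, 82 higher and 31 lower, became 52 and 54 with TMM scaling and 55 and 52 with DESeq2 size factors. The median log2 ratio was 0.03 over the members and 0.07 over the 398 genes. This test covers counting error alone. In edgeR's exact test with a biological coefficient of variation of 10.3%, estimated from the same 2 libraries with their difference counted as noise, which by construction leaves few calls, 0 members and 8 genes were called, 21 genes had an unadjusted p under 0.05, and the smallest unadjusted p among the members was 0.197.

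**Figure D3:**
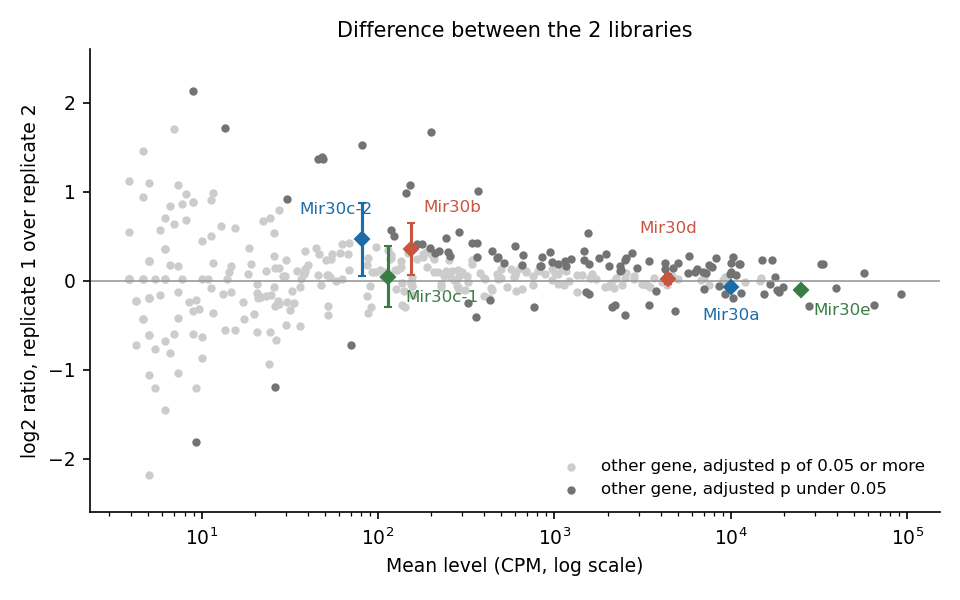
The log2 ratio of replicate 1 to replicate 2 against the mean level in CPM (log axis) for 398 genes, with the miR-30 genes as diamonds coloured by locus with exact 95% intervals. Without scaling beyond the library totals, the 3 abundant members lie within 0.11 of 0, and Mir30b and Mir30c-2 stand at 0.35 and 0.47.

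The ratio within a locus was also compared between the libraries. The log2 ratio of Mir30a to Mir30c-2 was 0.53 lower in replicate 1 than in replicate 2, a log2 change of -0.53 (adjusted p = 0.0294, two-sided Fisher's exact test of the counts, adjusted over the 3 loci). For Mir30d and Mir30b it changed by -0.33 (adjusted p = 0.0373, exact test), and for Mir30e and Mir30c-1 by -0.16 (adjusted p = 0.381, exact test). For the 114 neighbouring pairs above, which leave out Mir30a and Mir30c-2, the median absolute change between the libraries was 0.17. It was 0.18 for the 118 pairs within 20000 bases, which include them. The direction was the same in 3 of 3 loci, and 2 of the 3 changes passed, in a test that takes counting as the only source of error. The test was run for these 3 loci only. No share of passing changes over other pairs is thus at hand, and the count is not a trait of the family.

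A single other gene with a row shared the GUAAACA seed at bases 2 to 8 of a mature arm in the RefSeq table. Mir384 (ENSMUSG00000065499, chromosome X, 105344282 to 105344369) encodes miR-384-5p, shown because it has the seed of the family but, after the first 8 bases, other letters.
miR-384-5p: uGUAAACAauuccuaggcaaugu

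Mir384 had a level of 322 and 324 CPM in replicates 1 and 2, from 412 and 420 counts, and ranked 164 by its mean. It stood above Mir30b by 0.89 on the log2 scale in replicate 1 (0.65 to 1.13) and by 1.25 in replicate 2 (0.998 to 1.52). Its counts were 1.34% and 1.25% of those of Mir30e. Among the genes with this seed whose mature sequence could be read, then, Mir30e and Mir30a held most of the gene counts. Reads of miR-30c-5p alone, which has the same seed, fit several places and are in no gene row. Its part in the supply of the seed therefore cannot be read from these counts. The arm that was sequenced is not given.

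No count from the strand opposite to the family was detected at this depth. All 6 members had 0 counts on the opposite strand in both libraries, as did 92.0% of the 398 genes with 10 sense counts or more. The place opposite to Mir30e is annotated as Mir30f, which has no row of its own. Its mature sequence begins 1 base into the letters of the miR-30 5p arms, so its seed, in capitals, is shifted.
miR-30f: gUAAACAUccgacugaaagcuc

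A count of 0 there allows levels of up to 2.34 and 2.31 CPM in replicates 1 and 2 for reads that map to this place alone.

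Families of several loci with close copies were set beside miR-30. The let-7 family, which restrains proliferation and matures as LIN28 falls, took 2.99% ± 0.0777 of the counts with 10 genes, and Mirlet7e and Mirlet7f-1 had no row. The miR-181 family took 2.83% ± 0.0845 with 6 genes. The miR-29 family, known to rise as neurons mature, took 0.0342% ± 0.00261 with 4 genes. The miR-30 share of 3.98% ± 0.157 was the highest of the 4 families in both libraries. The leading gene held a like part of 3 families, 62.8% ± 0.860 for Mir30e, 62.8% ± 2.15 for Mirlet7g of let-7 and 63.8% ± 1.73 for Mir29c of miR-29, and 40.3% ± 1.48 for Mir181d of miR-181. Of the miR-30 genes, 3 of 6 had a mean of 1000 CPM or more, against 4 of 10, 4 of 6 and 0 of 4 in let-7, miR-181 and miR-29. Levels from highest to lowest member spanned 8.28 on the log2 scale in miR-30, 9.41 in let-7 and 7.78 in miR-181. These families also have copies whose reads fit several places, so their shares, like that of miR-30, are of reads with a single place.

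**Figure D4:**
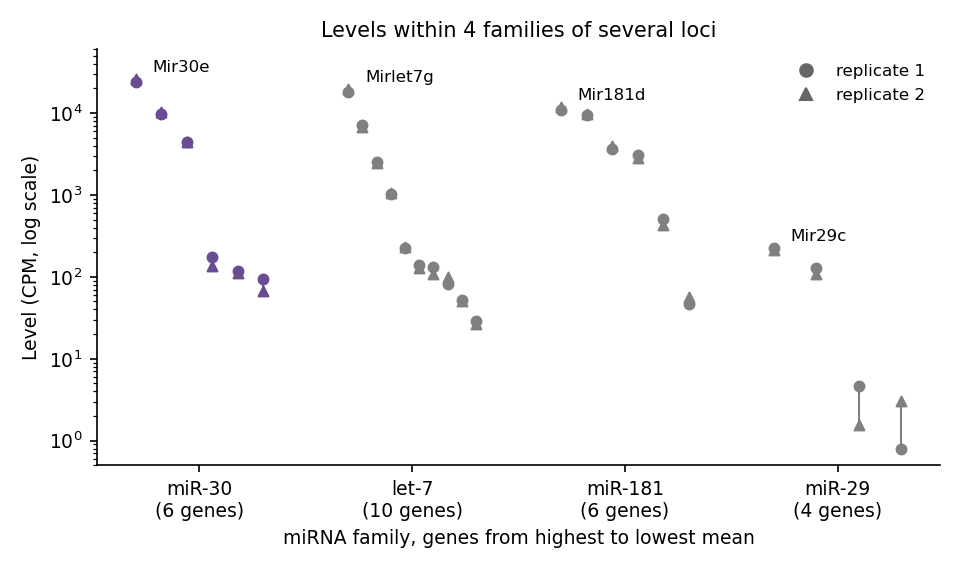
Level in CPM (log axis) of each gene of 4 families, ordered from the highest to the lowest mean, with circles for replicate 1, triangles for replicate 2 and a line between them. In miR-30 the 3 highest genes are followed by a gap of over 25-fold to Mir30b, and Mirlet7g, Mir181d and Mir29c lead the other families.

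The gene nearest in level to each member over the 2 libraries was Mir20a for Mir30e, at a distance of 0.24 in log2 CPM, Mir130b for Mir30a (0.09), Mir708 for Mir30d (0.06), Mir874 for Mir30b (0.09), Mir1298 for Mir30c-1 (0.09) and Mir192 for Mir30c-2 (0.23). With 2 libraries of 1 tissue this is a likeness of level only. The labelled tissue had counts of forebrain miRNAs: of 10 neural markers, 9 had a row and 8 had 2 CPM or more in both libraries, with 23835 and 20675 CPM summed in replicates 1 and 2, of which Mir92b alone gave 18428 and 15730 CPM. Mir137 had a mean of 2536 CPM and Mir153 of 1939 CPM. Mir9-1 had no row, and Mir9-2 and the 3 Mir124a genes, which have close copies, lay under 25 CPM. Markers of other cells were present too. Mir126a of endothelium had 34601 and 30323 CPM, the 2 smooth muscle markers 8116 and 7141 CPM summed, 3 erythroid markers 606 and 371 CPM, and 3 leukocyte markers, without Mir142, which has no row, 759 and 761 CPM. Of the 4 striated muscle markers, Mir1a-1 and Mir133a-1 were at 0, and the list summed to 198 and 99.4 CPM, of which Mir208b gave 191 and 96.3 CPM. Mir122 of liver had 21.1 and 6.17 CPM, and the 4 miRNAs of the Hox clusters, which mark tissue behind the forebrain, summed to 195 and 72.4 CPM with Mir196a-1 at 0. Which of these cells held the miR-30 counts was not tested.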

How the data were processed

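Short RNA of 2 pooled forebrain samples was measured by microRNA-seq. The members, lists and rules used here were chosen with earlier results of these data known. The authors aligned reads to mm10 and counted them per gene of GENCODE M4, per the text files deposited with the tables. An aligner or counter was not given in the sources used here for either library. The deposited values are raw counts, for both strands, the strand of the gene and the opposite strand. The strand of the gene was used, which held 96.4% and 96.8% of the counts. The rows for unmapped, multimapping, unannotated and ambiguous reads were kept out of totals. Multimapping reads were 41.7% and 39.1% of the mapped reads.

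Of 1973 identifiers, 1894 were found in GENCODE M21 (GRCm38, the assembly that mm10 names), including all members, and the other 79 held 0 and 1 counts. Positions are from M21, and mature sequences from RefSeq on GRCm38.p6. Longest shared stretches were searched among the 1005 hairpins of that table.

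The libraries were compared by a two-sided exact binomial test for genes with 10 counts or more in total (398), with Benjamini-Hochberg adjustment over all genes, a threshold of 0.05 and 0.5 counts added for log2 ratios over all genes. Members' ratios have exact Clopper-Pearson intervals. edgeR 4.0.16 gave TMM factors, a common dispersion from an intercept-only design and an exact test, and DESeq2 1.42.0 gave size factors. The binomial test and the ratio intervals were tested on simulated counts with counting error alone. That setting has no spread between pools, so it does not show how the test behaves with such a spread. Scripts ran in Python 3.11.15 (scipy 1.17.1) and R 4.3.3.

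Named genes are the members, other genes with the 5p seed, the gene nearest in level to each member, and the highest gene of each comparison family. With values already seen, the text also names Mir30f, Mir6958, Mir92-1, Mir335, Mirlet7e, Mirlet7f-1 and the marker genes.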

Additional observations from a re-analysis of the deposited data

How the results depend on the processing

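The log2 ratios of the 3 loci kept their direction in either replicate alone and moved by less than 1 SD with 0.5 counts added. The unstranded column and the subtraction of opposite-strand counts could not change them, since the members have 0 counts on that strand. The called differences of Mir30e and Mir30a between the libraries held with TMM and DESeq2 scaling, both filters and the unstranded column, and the size grew to -0.18 and -0.14 with TMM. In edgeR's exact test, whose dispersion holds the difference between the same 2 libraries and so by construction leaves few calls, the log2 ratios were -0.18 and -0.13 (adjusted p = 1 for each). That test called 8 genes in place of 113, and 0 members in place of 2. A 2-fold minimum left 11 genes and 0 members. Under TMM scaling, DESeq2 size factors and edgeR's exact test, Mir30d turned to log2 ratios of -0.050, -0.044 and -0.046, and Mir30c-1 to -0.024, -0.018 and -0.019, all without a call. With 50 counts or more, Mir30b passed the threshold (adjusted p = 0.0429 in the exact binomial test), where fewer genes were tested. The family's share of 3.98% became 1.40% of all reads and 2.17% of gene counts plus multimapping reads, since the total is larger by construction. No paired analysis was possible because the series has 1 group. The scarce members, with 88 to 222 counts in a library, are limited by depth.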

Other observations

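Genes of the RefSeq table that share a whole mature arm with another gene, Mir30c-1 and Mir30c-2 included, were set beside the other genes. The other genes include Mir30a and Mir30e. This grouping was chosen after the data were seen. Of 87 genes with such an arm and a row, 56.3% had a mean of 2 CPM or more, with a median of 116 CPM among them and a highest level of 8202 CPM for Mir92-1. Of 829 genes without one, 42.1% reached 2 CPM, with a median of 144 CPM and a highest level of 92176 CPM for Mir335. Among the 87, 25 stood above Mir30c-1 and 27, with Mir30c-1 itself, above Mir30c-2, against 185 and 197 of the 829. The upper quartiles of the genes with 2 CPM or more were 360 CPM with a shared arm and 1470 CPM without one. The groups differ in their genes, and no test was made.

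The 3p seed of Mir30a and Mir30e, UUUCAGU, was found in no other mature arm of the RefSeq table. That table has no entry for Mir30b and Mir30d, so their 3p seeds were not compared. The 3p seed of Mir30c-1 and Mir30c-2, UGGGAGA, was also that of miR-6958-5p, whose gene Mir6958 had 6.24 and 8.48 CPM in replicates 1 and 2.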
